A study of Mus musculus with 51 samples.

Results

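The Rab GTPases measured here were 50 mouse genes, chosen as every probe set whose only platform gene symbol is Rab followed by a number, with a letter allowed after it. Genes named for Rab effectors, activators or exchange factors were kept out by that rule. It took 95 of the 22626 probe sets tested, and each gene was read by its main probe set, the one with the highest mean log2 signal over the 51 arrays, so that the members were 50 of 12393 genes. In 27 of the 50 genes more than 1 probe set was present, up to 7 for 1 gene, and in 23 genes there was a single one. The main probe set averaged a signal of 50 or more for 36 of the 50 Rab genes (72.0%), against 7401 of all 12393 genes (59.7%). The other 14 were dim probe sets, for which a log2 difference is measured on little signal.

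Rab GTPases are small membrane switches. Bound to GTP, each Rab sits on a particular compartment and recruits tethers, motors and fusion factors, and a GTPase-activating protein then turns it off so that a GDP dissociation inhibitor can take it back to the cytosol. In a macrophage that has taken up a particle, Rab5 proteins mark the young phagosome, Rab7 replaces them as it matures, and other members such as Rab20, Rab32, Rab34 and Rab38 have been linked to later fusion with lysosomes or lysosome-related compartments. Transcript levels, which are what was measured here, do not show which Rab proteins were active or where they sat.

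Cells came from the lungs of mice exposed while alive and were alveolar macrophages, which take up what is inhaled. The mutant mice were gp91phox-/- (KO), in which Cybb, the gene for the catalytic NADPH oxidase subunit of phagocytes, is disrupted, and their controls were C57Bl/6 (WT). In KO mice there were 7 groups of 3 arrays each, 21 in all: untreated at 0 h, and, at each of 2 h and 4 h, mock, e6 and e7. In WT mice there were 30 arrays: the same 7 conditions with 4 arrays each, and polystyrene beads at 4 h with 2 arrays. Conidia were the airborne spores of Aspergillus fumigatus, and e6 and e7 are the labels' names of the lower and the higher dose. Age, sex and the strain on which the KO was kept are not given in the labels, nor is the number of mice behind an array. Replicates are called biological there, so p-values measure the spread between arrays as labelled. Groups were taken from the titles, since the treatment note of the WT mock arrays at 4 h names conidia.

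The genotype labels were borne out by Cybb, whose log2 signal was 6.77 to 9.06 on the 21 KO arrays and 10.59 to 12.12 on the 30 WT arrays, without overlap. A list of 15 alveolar macrophage markers averaged 12.61 to 12.96 on KO arrays and 12.41 to 12.87 on WT arrays. The defining markers were bright on every array, Siglecf at 11.64 or more and Marco at 11.74 or more. A list of 12 neutrophil markers averaged 5.01 to 7.01 on KO arrays and 4.57 to 8.56 on WT arrays, with its highest mean on WT mock replicate 3 at 4 h. The log2 ratio of 3' to 5' signal of control transcripts, which is larger where RNA was shorter, ran between 0.92 and 3.99 on KO arrays and between 0.93 and 5.32 on WT arrays. Its highest value was on 1 of the bead arrays. In WT at 4 h with e7 conidia, replicates 2 and 3 stood apart from replicates 1 and 4 in several Rab genes. Counts of called genes that rest on them are therefore given with and without them, and differences without them for some genes only. In RNA from a mixed cell sample, fewer cells of a type and less RNA per cell cannot be told apart.

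Before the values, promoter sequence is shown for the Rab genes on which the results turn: Rab34, Rab9 and Rab20, which were higher in KO cells, and Rab8b, which was higher in WT cells after e7 conidia at 4 h. Each window is 300 bases, 250 before and 50 after an annotated start, 5′ to 3′ on the gene's own strand, from RefSeq on build GRCm38.p6. Capitals mark an E-box (CACGTG), an AP-1 site (TGANTCA), the CCAAT box or a GC box (GGGCGG), searched on both strands. The first Rab34 window is chr11:78188177-78188476, plus strand, and the second, from a start further on, is chr11:78188498-78188797, plus strand. The Rab9 window is chrX:166479818-166480117, the Rab20 window chr8:11478591-11478890 and the Rab8b window chr9:66919656-66919955, all 3 on the minus strand.
Rab34, first start: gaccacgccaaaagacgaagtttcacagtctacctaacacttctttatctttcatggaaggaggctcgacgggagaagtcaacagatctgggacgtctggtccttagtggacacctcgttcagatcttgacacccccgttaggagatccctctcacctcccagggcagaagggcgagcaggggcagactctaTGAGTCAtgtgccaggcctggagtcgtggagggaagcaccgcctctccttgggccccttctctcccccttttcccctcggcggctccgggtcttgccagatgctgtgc
Rab34, second start: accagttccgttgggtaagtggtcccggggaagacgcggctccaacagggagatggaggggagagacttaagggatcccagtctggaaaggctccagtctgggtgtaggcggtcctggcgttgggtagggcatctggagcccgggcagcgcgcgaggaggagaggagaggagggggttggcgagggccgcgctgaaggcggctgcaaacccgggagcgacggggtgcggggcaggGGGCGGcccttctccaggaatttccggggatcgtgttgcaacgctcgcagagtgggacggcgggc
Rab9: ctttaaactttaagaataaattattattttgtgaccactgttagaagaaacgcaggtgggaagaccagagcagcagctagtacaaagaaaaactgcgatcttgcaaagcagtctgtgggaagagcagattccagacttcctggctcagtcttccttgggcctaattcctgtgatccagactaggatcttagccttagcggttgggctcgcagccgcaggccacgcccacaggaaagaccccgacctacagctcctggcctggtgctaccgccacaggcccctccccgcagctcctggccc
Rab20: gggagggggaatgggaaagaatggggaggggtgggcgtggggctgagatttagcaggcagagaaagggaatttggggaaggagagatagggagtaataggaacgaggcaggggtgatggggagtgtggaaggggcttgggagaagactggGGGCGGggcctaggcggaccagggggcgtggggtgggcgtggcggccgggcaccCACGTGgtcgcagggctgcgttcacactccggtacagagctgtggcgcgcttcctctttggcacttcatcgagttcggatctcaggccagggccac
Rab8b: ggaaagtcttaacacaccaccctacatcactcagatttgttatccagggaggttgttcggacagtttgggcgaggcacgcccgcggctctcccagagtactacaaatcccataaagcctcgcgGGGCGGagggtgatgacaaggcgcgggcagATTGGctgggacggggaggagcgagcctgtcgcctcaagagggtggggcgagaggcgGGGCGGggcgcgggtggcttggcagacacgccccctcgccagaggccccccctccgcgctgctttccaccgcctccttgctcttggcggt

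The Rab34 windows held 1 AP-1 site at the first start and 1 GC box at the second, Rab20 held 1 E-box and 1 GC box, Rab8b held 1 CCAAT box and 2 GC boxes, and Rab9 held none of these 4 motifs. A promoter window was present for 42 of the 50 Rab genes, 54 windows in all. A GC box was in 68.5% of these and in 35.7% of all 32851 windows. An NF-kB-like pattern, GGG and CC with any 5 bases between them, was in 68.5% of Rab windows and 50.8% of all. For the E-box the shares were 11.1% and 7.15%, for AP-1 3.7% and 7.81%, for CCAAT 42.6% and 37.4%, for the antioxidant element core TGANNNNGC 44.4% and 41.3%, and for TATAAA 3.7% and 13.6%. The patterns were counted separately, and the NF-kB-like pattern can overlap a GC box. A match describes letters in a window and is not evidence of binding.

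KO and WT cells were compared as a mean over the 7 conditions that both had, to ask how the genotypes differed whatever the exposure. Of the 50 Rab genes, 12 passed the test, 9 higher and 3 lower in KO cells, which is 24.0%. Over all genes 35.0% passed, 21.4% higher and 13.6% lower, so the Rab share lay below the background. The median difference was 0.12 for the Rab genes and 0.09 for all genes on the log2 scale. Quantile normalization moved the median of all probe sets to -0.03, against 0.11 in the deposited scaling, with a split of 2851 higher and 3721 lower in place of 4945 and 2617, so that small differences here depend on the scaling. Each difference below is KO minus WT in log2 units with limma's standard error and a Benjamini-Hochberg adjusted p over all probe sets.

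Rab34, a Rab of macropinosomes and of lysosome positioning that also takes part in cilium formation, gave the clearest difference. On the 21 KO arrays its log2 signal had a lowest value of 7.58, a median of 8.19 and a highest of 9.12, against 5.13, 5.93 and 6.64 on the 30 WT arrays. Every KO array lay above every WT array, which was true of 0.315% of all genes and of no other Rab gene. The difference was 2.36 ± 0.10 (adjusted p = 8.47e-21 by limma), rank 40 of 12393 genes by rise and rank 9 by p. A second Rab34 probe set, of lower mean signal, read 7.67 to 8.93 on KO arrays and 4.81 to 6.39 on WT arrays, with a difference of 2.47 ± 0.09 (adjusted p = 1.71e-22 by limma). Both probe sets thus separated the genotypes.

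The Rab34 difference was present before any instillation. Untreated KO arrays read 8.28, 7.66 and 7.90 and untreated WT arrays 5.96, 5.90, 5.69 and 6.10, a difference of 2.03 (adjusted p = 4.63e-06 by limma). Across the 7 conditions the difference ran between 2.03 in untreated cells and 2.83 at 4 h with e6 conidia, and the arrays of the genotypes did not overlap in any of them. In 85 genes (0.686% of all) every condition had all KO arrays above all WT arrays. Neither dose of conidia called the main Rab34 probe set against mock in either genotype, although the other one was lower with e7 conidia in WT cells at 4 h (-1.06, called). With e7 conidia the main one differed by -0.08 ± 0.29 in KO cells and 0.36 ± 0.25 in WT cells at 2 h, and by -0.28 ± 0.29 in KO cells and -0.29 ± 0.25 in WT cells at 4 h.

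**Figure D1:**
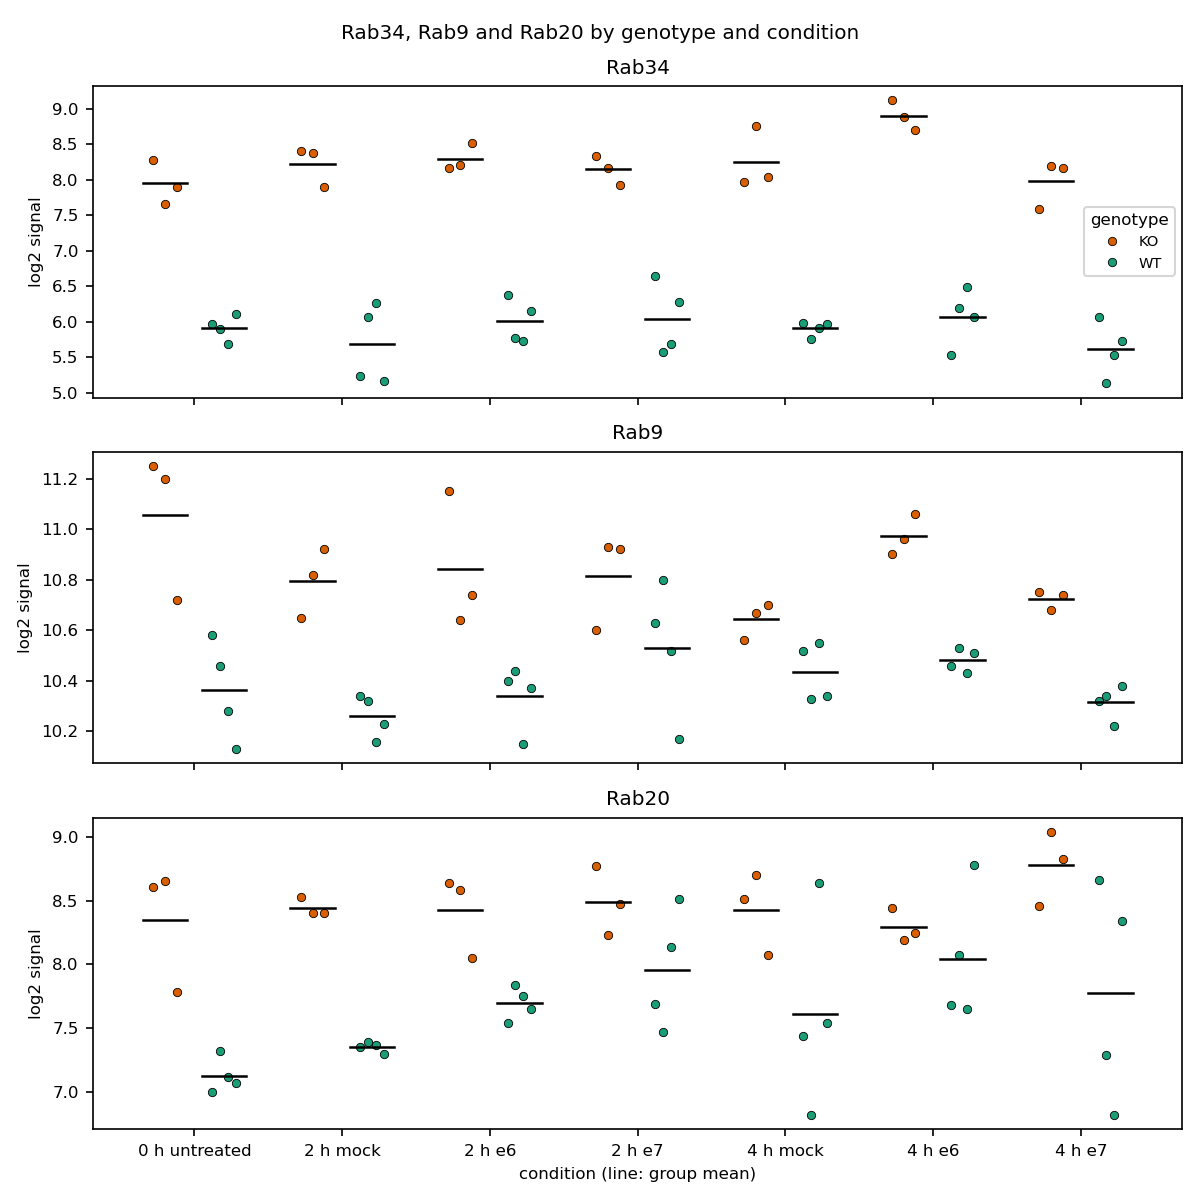
Log2 signal of Rab34, Rab9 and Rab20 on every array, by condition, with KO arrays (3 per condition) left of WT arrays (4 per condition) and a line at each group mean. Rab34 separated the genotypes in all 7 conditions with means 2.03 to 2.83 apart, Rab9 in 6 of 7, and Rab20 in 3 of 7.

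Rab9 returns mannose 6-phosphate receptors to the trans-Golgi from late endosomes. It read 10.56 to 11.25 on KO arrays, median 10.75, and 10.13 to 10.80 on WT arrays, median 10.37. The difference was 0.45 ± 0.05 (adjusted p = 9.93e-09 by limma). In untreated cells the KO arrays read 11.25, 11.20 and 10.72 and the WT arrays 10.58, 10.46, 10.28 and 10.13 (0.69 ± 0.14, adjusted p = 0.00216 by limma). All KO arrays lay above all WT arrays in 6 of the 7 conditions, and in the other one, 2 h with e7 conidia, they overlapped.

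Rab20, a Rab of phagosome maturation that is induced by hypoxia and by interferon gamma in macrophages, had a KO median of 8.47 with a range of 7.78 to 9.04, and a WT median of 7.54 with a range of 6.82 to 8.78. The difference was 0.81 ± 0.13 (adjusted p = 4.73e-06 by limma). Untreated KO arrays read 8.61, 8.65 and 7.78, and untreated WT arrays 7.0, 7.32, 7.12 and 7.07 (1.22 ± 0.33, adjusted p = 0.0448 by limma). KO means were higher in all 7 conditions, by 0.25 to 1.22, and arrays did not overlap in 3 of them. In the other 4 conditions 1 WT array reached the KO values, at 8.51 with e7 conidia at 2 h and at 8.64 in mock, 8.78 with e6 conidia and 8.66 with e7 conidia at 4 h. The mock array was replicate 3, which also had the highest neutrophil list mean.

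Rab34, Rab9 and Rab20 were the only Rab genes called between untreated KO and untreated WT cells, where 2.39% of all genes were called. With the 3'/5' ratio as a covariate the untreated difference of Rab20 was 1.10 (adjusted p = 0.0743), and those of Rab34 and Rab9 were 2.06 and 0.69 and passed. The Rab20 call was kept in 8 of 16 alternatives, that of Rab9 in 14 and that of Rab34 in 16. Without untreated KO replicate 1 the count of Rab genes called was 1, and without replicate 3 it was 5. The genes next to these 3 on the chromosome, named here for their position alone, were read as KO against WT over the 7 conditions. They did not share one direction. Of the 5 measured genes on each side, Rab34 on chromosome 11 had 1 called higher, Aldoc (1.0), and 2 lower, while the adjoining Tlcd1 and Supt6 differed by -0.01 and -0.28 and were not called. Rab9 on chromosome X had 1 higher, Gpm6b (0.96), and 1 lower, Ofd1 (-0.23). Rab20 on chromosome 8 had 2 higher and 5 lower. The 2 higher were the adjoining Col4a2 (1.34) and, next to it, Col4a1 (1.55), each above the 0.81 of Rab20. Naxd, adjoining on the other side, differed by 0.09 and was not called. Over all genes 35.0% were called over the 7 conditions, 21.4% higher and 13.6% lower.

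Grouped by role, 4 of 7 Rab genes of late endosomes, late phagosomes and lysosomes were higher in KO cells (57.1%) and none was lower, where 21.4% of all genes were higher and 13.6% lower. With 7 genes in the role this is a count, and no test of the role was made. The count also depends on how the roles were drawn, which was done with earlier results of these data known. Rab32 and Rab38, named above with Rab20 and Rab34, were placed among lysosome-related organelles, and there Rab32 was called lower and Rab38 higher. The fourth beside Rab34, Rab20 and Rab9 was Rab7, which drives fusion of late endosomes and phagosomes with lysosomes. Rab7 read 12.67 to 13.33 on KO arrays, median 12.90, and 12.50 to 12.98 on WT arrays, median 12.71, and rose by 0.16 ± 0.04 (adjusted p = 0.00568). Its second probe set rose by 0.56 (adjusted p = 9.48e-06 by limma). The 3 members of this group that were not called were Rab7b, Rab24 and Rab29.

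Of 9 Rab genes of lysosome-related organelles and regulated secretion, 2 were higher and 2 lower. Rab38, a Rab of melanosome and lung surfactant organelles, read 4.47 to 7.27 on KO arrays and 3.15 to 6.58 on WT arrays (0.77 ± 0.15, adjusted p = 0.000144 by limma). Its condition differences were uneven, 2.02 at 2 h with e7 conidia and 0.04 in untreated cells. Rab3c, an exocytic Rab known from neurons, rose by 1.66 ± 0.34 (adjusted p = 0.000227), but it was a dim probe set with KO values of 0.61 to 6.40 and WT values of -0.11 to 5.52. Where every signal below 50 was raised to 50, Rab3c differed by 0.05 (adjusted p = 0.148 by limma) and Rab38, also dim, by 0.29 (adjusted p = 0.00115 by limma). Raising signals in this way makes them equal and so narrows their spread too.

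The lower members were Rab3d, a Rab of secretory granules, at -0.33 ± 0.08 (adjusted p = 0.00128), Rab32, a relative of Rab38 that acts on phagosomes of macrophages, at -0.10 ± 0.04 (adjusted p = 0.048), and Rab33b, a Golgi Rab that binds an autophagy factor, at -0.25 ± 0.07 (adjusted p = 0.00782). Rab3d was lower in all 7 condition means, and the arrays overlapped in each. Its 4 probe sets did not share a direction, since 2 were called lower and 1 was called higher by 0.38. The Rab32 call was kept in 20 of 59 alternatives, and its arrays spanned 11.25 to 12.15 in KO cells and 11.65 to 12.33 in WT cells.

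Single members of the other roles were also higher in KO cells. Rab15, of endocytic recycling, rose by 0.62 ± 0.08 (adjusted p = 1.26e-07 by limma) and read 6.52 to 8.46 on KO arrays and 6.56 to 7.66 on WT arrays. Its mean was lower by 0.37 in untreated KO cells than in untreated WT cells and higher by up to 1.31 in the other conditions. Rab13, a Rab of cell junctions, rose by 0.55 ± 0.10 (adjusted p = 6.75e-05), with KO arrays above WT arrays in 4 of 7 conditions. Rab40c, a Rab with a SOCS box that joins a ubiquitin ligase, rose by 0.26 ± 0.06 (adjusted p = 0.00173). None of the 6 early endosome Rabs passed, and their differences ran between -0.08 for Rab5a and 0.48 for Rab5b.

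The genotype comparison included other differences between the arrays whose part in these results was not tested. Fabp4, an alveolar macrophage marker and lipid-binding protein, read 12.04 to 13.28 on KO arrays and 10.51 to 11.94 on WT arrays, without overlap, while the whole marker list overlapped. Markers of T, NK and B cells averaged 2.48 to 5.41 on KO arrays and 2.21 to 4.31 on WT arrays, and erythroid markers 2.38 to 8.15 on KO arrays and 2.32 to 6.69 on WT arrays. With the 3'/5' ratio as a covariate, the Rab34 difference was 2.37, Rab9 0.45 and Rab20 0.75, all still called.

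In WT cells at 4 h, e7 conidia were set against mock to ask what the higher dose did to Rab transcripts in the normal host. Of the 50 genes, 8 passed (16.0%), 3 higher and 5 lower, against 17.5% of all genes, 6.11% higher and 11.4% lower. The median was -0.10 for Rab genes and -0.08 for all genes. The arrays did not overlap for 2 of the 50 Rab genes (4.0%), both lower, and for 10.4% of all genes. Without e7 replicate 2 the count was 5 and without replicate 3 it was 3, all of them lower. None of the 8 calls was kept when both were left out, nor in a fit of the 8 arrays alone.

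Among the called genes the largest falls were in a pair of Rabs of secretory and recycling traffic. Rab4b, of fast recycling from early endosomes, read 8.22, 7.77, 4.66 and 8.44 on e7 replicates 1 to 4 and 8.98, 8.34, 9.09 and 8.18 on mock arrays. It fell by 1.37 on the log2 scale (SE 0.43, adjusted p = 0.0228), with replicate 3 far below the rest, and the difference was -0.32 without replicates 2 and 3. Rab43, of the Golgi, read 8.29, 6.88, 7.54 and 8.86 with e7 conidia and 8.65, 8.79, 9.30 and 9.21 in mock (-1.10 ± 0.26, adjusted p = 0.00301 by limma). A second Rab43 probe set differed by -1.11 and was also called. Without replicates 2 and 3 the first differed by -0.41.

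Rab1b, which takes cargo to the Golgi from the endoplasmic reticulum, read 9.17, 8.81, 8.26 and 9.96 with e7 conidia and 9.95 to 10.03 in mock (-0.96 ± 0.22, adjusted p = 0.00275 by limma). The mock arrays lay within a narrow band, and e7 replicate 4 lay inside it. Rab40c read 9.29, 8.76, 8.77 and 9.36 with e7 conidia and 9.82, 9.94, 9.79 and 9.44 in mock (-0.70 ± 0.16, adjusted p = 0.00197 by limma). Rab29, a partner of the kinase LRRK2 at lysosomes and the Golgi, read 10.37, 10.25, 10.01 and 10.54 with e7 conidia and 10.88, 10.87, 10.88 and 10.56 in mock (-0.51 ± 0.13, adjusted p = 0.00637 by limma). Rab40c and Rab29 were the members whose e7 arrays all lay below the mock arrays.

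The 3 higher members act at the Golgi or on the way to the plasma membrane. Rab8b, whose promoter is shown above, read 13.10, 13.80, 13.95 and 12.57 with e7 conidia and 12.80, 12.65, 12.84 and 12.63 in mock (0.63 ± 0.17, adjusted p = 0.0101 by limma). Replicates 2 and 3 were the highest, replicate 4 lay below all mock arrays, and the difference was 0.11 without replicates 2 and 3. Rab10, of exocytic and glucose transporter traffic, read 11.34, 11.79, 11.95 and 11.50 with e7 conidia and at most 11.07 on mock replicates 1 to 3 and 11.67 on mock replicate 4 (0.45 ± 0.16, adjusted p = 0.0498 by limma). Rab6a, of retrograde Golgi traffic, read 10.63, 10.94, 10.89 and 10.96 with e7 conidia and 10.45, 10.23, 10.56 and 10.72 in mock (0.37 ± 0.11, adjusted p = 0.0158 by limma). For Rab6a the e7 arrays other than replicate 1 exceeded every mock array, and the difference was 0.31 without replicates 2 and 3. A second Rab6a probe set, about as bright, differed by -0.12 and was not called.

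**Figure D2:**
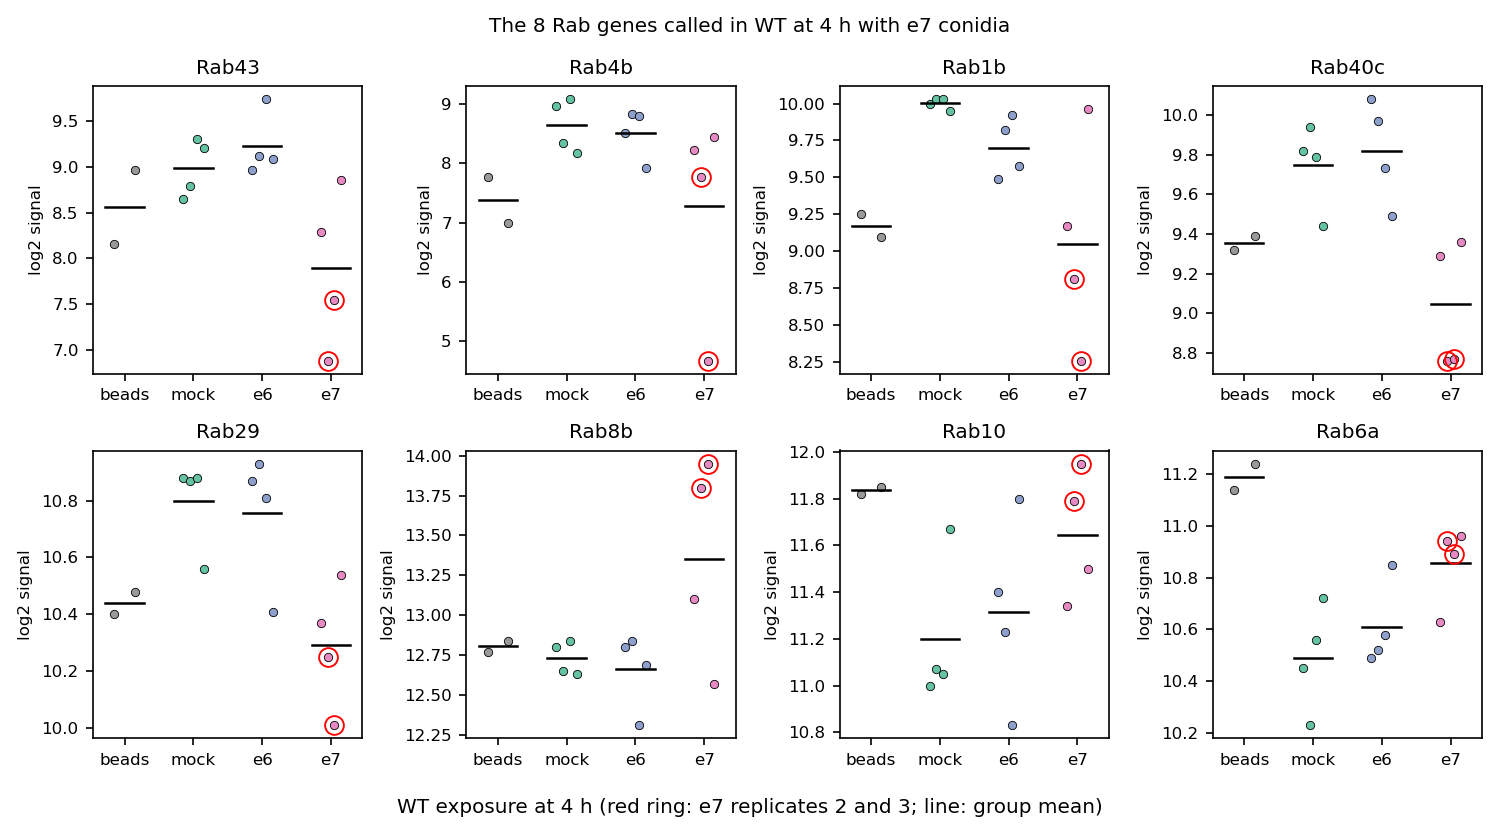
Log2 signal on every WT array at 4 h of the 8 Rab genes called with e7 conidia against mock: beads (2 arrays), mock, e6 and e7 conidia (4 arrays each), with a line at each group mean and red rings round e7 replicates 2 and 3. For Rab43 and Rab1b the ringed arrays are the lowest of the e7 group, and for Rab8b and Rab10 the highest.

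On these arrays the 3'/5' ratio was 1.64, 2.34, 3.83 and 1.26 for e7 replicates 1 to 4 and 1.19 to 2.34 in mock. The neutrophil list averaged 5.37 to 7.54 with e7 conidia and 5.06 to 8.56 in mock, and the macrophage list 12.48 to 12.68 with e7 conidia and 12.68 to 12.83 in mock. With the 3'/5' ratio as a covariate Rab10 was no longer called (0.35, adjusted p = 0.0677), nor was it after quantile normalization (0.36, adjusted p = 0.132). The part of cell makeup in these differences was not tested.

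Against the lower dose, e7 conidia at 4 h in WT cells called 8 Rab genes, 2 higher and 6 lower, where 18.6% of all genes were called, 6.73% higher and 11.8% lower. This comparison shares its e7 arrays with the one against mock. Rab43 had 8.97, 9.12, 9.74 and 9.08 with e6 conidia, above every e7 array (-1.34, adjusted p = 0.000446 for e7 against e6). Rab24, a Rab of autophagy, was higher with e7 conidia at 9.63, 9.78, 9.57 and 8.70, against 8.65, 9.04, 8.47 and 8.55 with e6 conidia (0.74, adjusted p = 0.0101 by limma). Rab6b, a relative of Rab6a known from neurons, was lower at 6.99, 6.03, 6.95 and 6.69 with e7 conidia, against 7.24, 7.64, 7.84 and 7.15 with e6 conidia (-0.80, adjusted p = 0.0126 by limma). The other 5 were Rab8b (0.70), Rab4b (-1.24), Rab40c (-0.77), Rab1b (-0.66) and Rab29 (-0.46). The count was 5 without e7 replicate 2, 4 without e7 replicate 3, 5 without e6 replicate 3, and 0 without e7 replicates 2 and 3. With e6 conidia against mock at 4 h, limma called none of the 50, and 0.0161% of all genes. An unadjusted p under 0.05 was found for 1 of the 50 and for 603 of all 12393 genes.

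At 2 h in WT cells e7 conidia called none of the 50 Rab genes, where 1.76% of all genes were called. By limma 13 of the 50 had an unadjusted p under 0.05, against 2056 of all 12393 genes. The e7 arrays did not overlap with mock for 12 of the 50 (24.0%), 7 above and 5 below, against 12.0% of all genes. Rab32 came nearest to the threshold, at 12.33, 12.15, 12.17 and 12.02 with e7 conidia and 11.74, 11.72, 11.84 and 11.97 in mock (0.35 ± 0.10, adjusted p = 0.0597 by limma). It passed under quantile normalization, a floor at 50, a filter on mean signal, array weights and a trended prior, with adjusted p between 0.0114 and 0.0398. Without mock replicate 4 it passed with Rab6a, for a count of 2. Rab32 did not pass with the 3'/5' ratio as covariate, with the replicate number as a block or with only the groups compared. Leaving out any other single array gave no call either. Rab6a read 11.04, 11.08, 11.05 and 10.95 with e7 conidia and 10.67, 10.62, 10.52 and 10.95 in mock (0.34 ± 0.11, adjusted p = 0.0909 by limma). Rab5a read 11.32, 11.45, 11.43 and 11.47 with e7 conidia and 11.21, 11.24, 11.16 and 11.24 in mock (0.20 ± 0.13, adjusted p = 0.458 by limma). All e7 arrays lay above all mock arrays for Rab5a, Rab6b, Rab10, Rab20, Rab21, Rab32 and Rab43, and below them for Rab1b, Rab3a, Rab4b, Rab8a and Rab24. The 3'/5' ratio also differed, at 2.09 to 4.85 with e7 conidia and 0.93 to 1.47 in mock, as did the alveolar macrophage list, at 12.54 to 12.63 with e7 conidia and 12.66 to 12.87 in mock, both without overlap. The part of cell makeup in these differences was not tested. With e6 conidia at 2 h limma called none, and 2 had an unadjusted p under 0.05, against 497 of all 12393 genes. Between e7 and e6 conidia it called none, and 3 were below that level, against 934 of all genes. Of all genes 0.0% were called in each of these.

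The change of the response between the times was tested directly in WT cells, as the e7 difference at 4 h minus that at 2 h, for which 3.18% of all genes were called. It passed for 2 Rab genes. Rab8b had 12.53, 12.75, 12.30 and 12.36 with e7 conidia at 2 h and 12.65, 12.96, 12.59 and 12.70 in mock at 2 h, and its response was 0.87 ± 0.24 higher at 4 h (adjusted p = 0.0433 by limma). Rab43 had 9.03, 8.96, 9.21 and 8.97 with e7 conidia at 2 h and 8.90, 8.72, 8.83 and 8.94 in mock at 2 h, and its response differed by -1.29 ± 0.36 (adjusted p = 0.0435 by limma). Without e7 replicates 2 and 3 of the 4 h group these were 0.35 and -0.61, and neither passed. Each was kept in 10 of 26 alternatives.

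In KO cells at 2 h, e7 conidia against mock called 4 of the 50 Rab genes, all higher, against 8.54% of all genes, 5.88% higher and 2.65% lower. The median of the Rab genes was -0.06 and that of all genes 0.23. Leaving out 1 of the 6 arrays at a time gave 0 or 1 calls. The arrays did not overlap for 19 of the 50 Rab genes (38.0%), 9 above and 10 below mock, against 39.0% of all genes. The median of all probe sets in this comparison was 0.26, and 0.01 after quantile normalization, with 649 probe sets called higher and 927 lower in place of 1382 and 575.

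Rab6a read 11.05, 10.99 and 10.92 in KO cells with e7 conidia and 10.54, 10.49 and 10.68 in mock (0.42 ± 0.12, adjusted p = 0.032 by limma), and it was called under quantile normalization with a difference of 0.42 (adjusted p = 0.025). Rab15 read 8.04, 7.87 and 7.97 with e7 conidia and 6.99, 7.23 and 7.42 in mock (0.75 ± 0.23, adjusted p = 0.0338 by limma), and after quantile normalization differed by 0.62 (adjusted p = 0.0737). Every e7 array lay above every mock array for both. The second Rab6a probe set differed by 0.04 and was not called. Rab27b, of granule secretion, and Rab3c were called on dim probe sets. A second Rab27b probe set differed by -0.55 and was not called. Of the 3 Rab3c probe sets only the main one was called, and the lowest differed by -0.63. The remaining Rab3c probe set read 0.27, 3.03 and 2.11 with e7 conidia and 0.96, 2.34 and 0.29 in mock. Rab27b read 3.36, 4.77 and 4.61 with e7 conidia and -0.24, 0.06 and 1.05 in mock (3.96 ± 1.03, adjusted p = 0.016 by limma). With a floor at a signal of 50 it differed by 0.0, since all of these values lie under that floor. Rab3c read 5.95, 5.08 and 6.40 with e7 conidia and 0.61, 4.34 and 3.12 in mock (3.13 ± 0.96, adjusted p = 0.0356 by limma). With the floor it differed by 0.36 (adjusted p = 0.00126 by limma). There the mock arrays, e7 replicate 2 and every WT array were set to the same value. That p-value therefore does not measure the arrays' own spread.

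**Figure D3:**
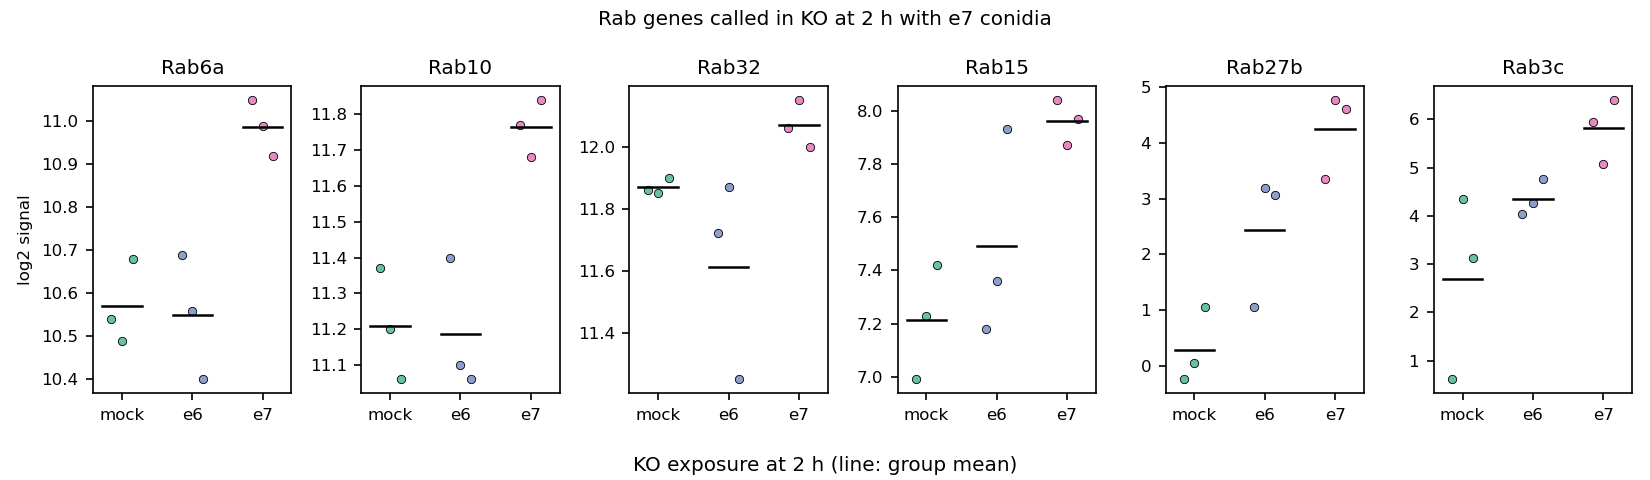
Log2 signal on every KO array at 2 h, 3 per group in the order mock, e6 and e7 conidia, for the 6 Rab genes called with e7 conidia against mock or against e6 conidia, with a line at each group mean. The e7 arrays of Rab6a, at 10.92 to 11.05, lie above all mock and e6 arrays, and Rab27b and Rab3c lie far down the scale.

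Against e6 conidia at 2 h in KO cells, e7 conidia called 3 Rab genes, all higher, where 6.98% of all genes were called, 4.37% higher and 2.61% lower. Rab10 read 11.77, 11.68 and 11.84 with e7 conidia and 11.40, 11.10 and 11.06 with e6 conidia (0.58 ± 0.18, adjusted p = 0.048 by limma). Rab32 read 12.06, 12.15 and 12.00 with e7 conidia and 11.72, 11.87 and 11.25 with e6 conidia (0.46 ± 0.12, adjusted p = 0.0149 by limma), with mock at 11.86, 11.85 and 11.90. Rab32 was lowest on e6 replicate 3. Rab6a was the third (0.44, adjusted p = 0.027 by limma), and its second probe set differed by 0.13 and was not called. The count was 0 or 1 without any of the 3 e7 arrays, and likewise without e6 replicate 2 or 3. On the KO arrays at 2 h the 3'/5' ratio was 1.45 to 3.0 with e7 conidia and 0.92 to 1.22 in mock, and the macrophage list averaged 12.67 to 12.74 with e7 conidia and 12.88 to 12.94 in mock, both without overlap. With the ratio as a covariate Rab6a differed by 0.37 from mock (adjusted p = 0.0597) and Rab15 by 0.71 (adjusted p = 0.0589).

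At 4 h in KO cells e7 conidia called none of the 50 Rab genes, with 3 at an unadjusted p under 0.05 by limma, where 0.00807% of all genes were called. With e6 conidia limma called none at 2 h, with 3 at an unadjusted p under 0.05 and 0.0% of all genes called, and none at 4 h, with 6 at an unadjusted p under 0.05 and 0.0807% of all genes called. Between e7 and e6 conidia at 4 h limma called none, with 8 at an unadjusted p under 0.05 and 0.871% of all genes called. Of all 12393 genes, 843, 415, 912 and 1859 had an unadjusted p under 0.05 in these comparisons, in the order given. The genotypes' responses to e7 conidia were then compared with each other. At 2 h limma called none of the Rab genes, where 1.35% of all genes were called. An unadjusted p under 0.05 was found for 5 of the 50 and for 1970 of all 12393 genes. At 4 h 0.218% of all genes were called and Rab1b was 1 of them. In KO cells it averaged 10.14 ± 0.21 with e7 conidia and 9.57 ± 0.41 in mock (SD, n = 3 each), every e7 array lay above every mock array, and the KO response exceeded the WT response by 1.52 ± 0.34 (adjusted p = 0.0475 by limma). It was lost when any 1 array was left out other than e7 replicate 1 or 4 of WT cells, was kept in 9 of 24 alternatives, and without WT e7 replicates 2 and 3 it was 1.01 (adjusted p = 0.416).

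Polystyrene beads gave an inert particle to set beside the conidia in WT cells at 4 h. Against mock they called 1 Rab gene, Rab6a, which was higher, where 1.17% of all genes were called, 0.597% higher and 0.573% lower. It read 11.14 and 11.24 with beads and 10.45, 10.23, 10.56 and 10.72 in mock (0.71 ± 0.13, adjusted p = 0.00968 by limma). With the 3'/5' ratio as a covariate, which was 4.11 and 5.32 on the bead arrays, it was 0.58 (adjusted p = 0.189). It was not called without bead replicate 1. A second Rab6a probe set was about as bright, with a mean over the 51 arrays of 10.72 against 10.74. It differed by 0.06 with beads and was not called. The alveolar macrophage list averaged 12.41 to 12.48 with beads and 12.68 to 12.83 in mock, without overlap, and the part of cell makeup was not tested. Rab10 had 11.82 and 11.85 with beads, above all mock arrays, and was not called. Bead and mock arrays did not overlap for 32.0% of the Rab genes and 27.5% of all genes. Conidia at e7 against beads called none of the 50, where 3.98% of all genes were called, 1.28% higher and 2.7% lower. By limma 10 of the 50 had an unadjusted p under 0.05, against 2715 of all 12393 genes.

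Instillation itself was read from mock against untreated mice. In KO cells at 4 h it called Rab15, at 7.75, 7.65 and 8.05 in mock and 6.86, 7.01 and 6.52 in untreated cells (1.02 ± 0.23, adjusted p = 0.0163 by limma), where 1.04% of all genes were called. All 3 mock arrays lay above the untreated ones, and the call was lost without mock replicate 1, mock replicate 3 or untreated replicate 3. At 2 h in KO cells limma called no Rab gene, 2 had an unadjusted p under 0.05 and 0.00807% of all genes were called. In WT cells limma called no Rab gene at 2 h, with 4 at an unadjusted p under 0.05 and 0.0% of all genes called. At 4 h it called none, with 5 at an unadjusted p under 0.05 and 0.00807% of all genes called. Of all 12393 genes, 981 reached that unadjusted level in KO cells at 2 h, 1250 in WT cells at 2 h and 1034 in WT cells at 4 h.

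**Figure D4:**
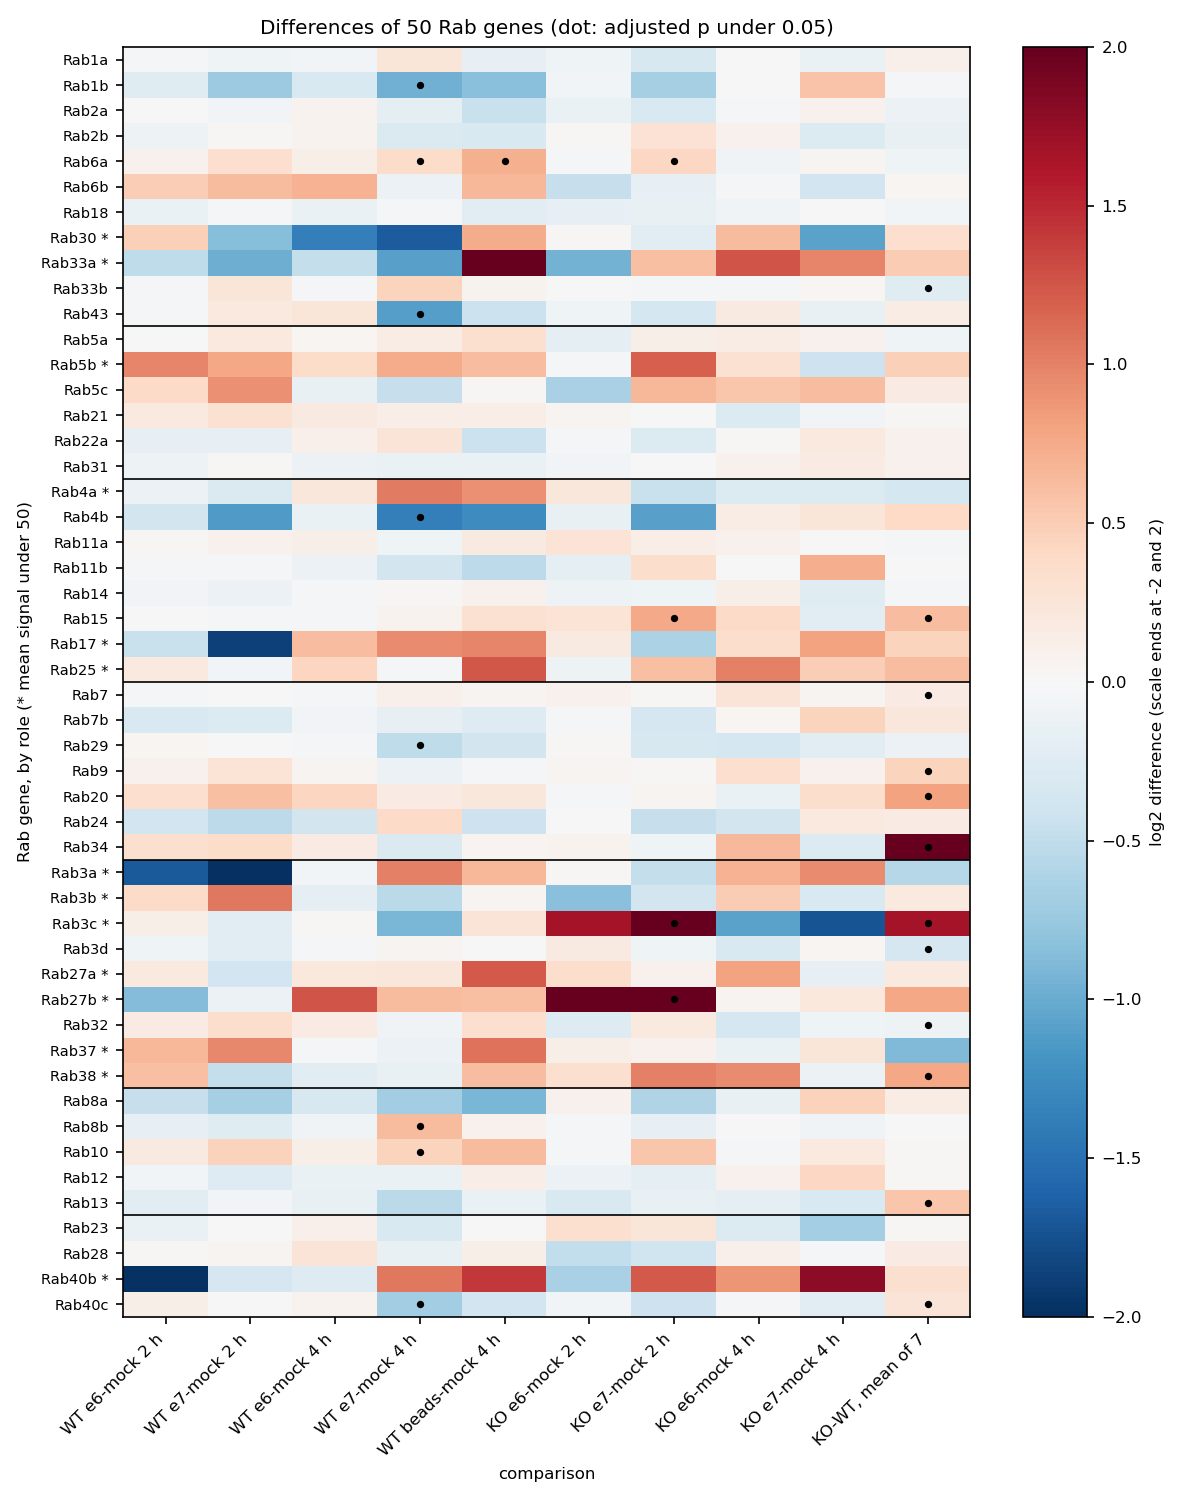
Log2 difference of each of the 50 Rab genes in 9 comparisons with mock (WT and KO, conidia or beads) and in KO against WT over 7 conditions, grouped by role with black lines between roles, red for higher and blue for lower. Dots mark an adjusted p under 0.05, asterisks mark the genes with mean signal under 50, and the colour scale ends at -2 and 2. The early endosome block has no dot, and the late endosome block has 4 in the genotype column.

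The Rabs that mark a phagosome along its path were mostly without a call after conidia. The 3 Rab5 genes, Rab22a and Rab31 of early endosomes passed in none of the 23 comparisons, and neither did Rab11a and Rab14 of recycling or Rab27a of secretory lysosomes, by their main probe sets. With e7 conidia at 4 h in WT cells Rab5a differed by 0.15 ± 0.13, Rab5b by 0.74 ± 0.54 and Rab5c by -0.46 ± 0.44. Rab7 differed by 0.10 ± 0.11 there and by 0.02 ± 0.13 in KO cells at 2 h, and Rab14 by 0.02 ± 0.12 and -0.08 ± 0.13. Rab22a differed by 0.25 ± 0.18 in WT cells at 4 h, Rab31 by -0.14 ± 0.15, Rab11a by -0.08 ± 0.13 and Rab27a by 0.22 ± 0.42. Among these, standard errors were widest for Rab5b, Rab5c and Rab27a. Rab5b and Rab27a averaged under a signal of 50, while Rab5c averaged 9.17 on the log2 scale. Of those that differed between the genotypes, Rab20 had a difference from mock of 0.05 ± 0.36 in KO cells and 0.60 ± 0.31 in WT cells with e7 conidia at 2 h. Rab38 had 1.01 ± 0.43 in KO cells (adjusted p = 0.126) and -0.48 ± 0.37 in WT cells there.

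The brightest main probe sets were those of Rab14, Rab1a, Rab7, Rab8b, Rab32 and Rab18, a Rab of lipid droplets, with means over the 51 arrays of 13.47, 13.24, 12.80, 12.74, 11.94 and 11.75. Probe sets differ in how brightly they read a transcript, so this order is not one of abundance. The dimmest were Rab37, Rab3c, Rab27b and Rab30, at 3.39, 3.14, 2.30 and 1.18. In Rab14 the 51 arrays spanned 13.17 to 13.95, and in Rab3c -0.11 to 6.40.

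Probe sets of the same Rab gene did not always move together. With e7 conidia at 4 h in WT cells, 14 Rab genes (28%) had at least 1 called probe set, against 8 by the main probe set, while 21.6% of all genes had at least 1. A gene with more probe sets has more chances of a call, and the Rab genes had 1.9 each, against 1.64 over all genes. Rab8b had a second probe set at -2.02 that was not called, beside the main one at 0.63. Rab11a, Rab21 and Rab14 each had another probe set called higher, at 0.86, 0.96 and 1.03, where the main one differed by -0.08, 0.14 and 0.02. Rab7b and Rab34 each had another called lower, at -1.25 and -1.06. For e7 against e6 conidia in the same cells, 1 probe set of Rab10 was called lower (-0.46) and 1 higher (0.95). Rab2a, with 7 probe sets, had 1 called lower and 1 called higher in KO against WT, within a range of -0.95 to 0.59. In KO against WT a probe set other than the main one was called higher for Rab23 (0.94), Rab28 (0.56), Rab43 (0.53) and Rab24 (0.40), and lower for Rab6a (-0.30) and Rab2b (-0.18), where the main one was not called. Rab14 had 2 such probe sets, at -0.44 and -0.38, beside its bright main one at -0.02. Counted by any probe set, 20 Rab genes (40.0%) were called between KO and WT, and 43.5% of all genes.

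**Figure D5:**
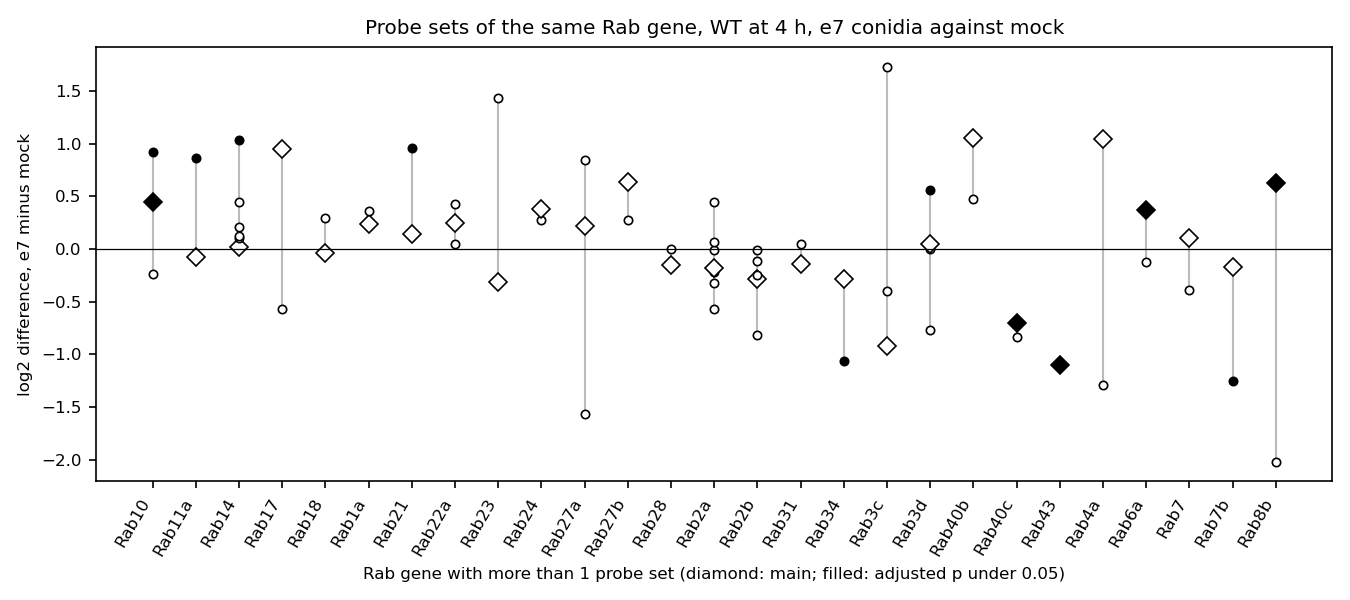
Log2 difference, e7 conidia minus mock in WT cells at 4 h, of every probe set of the 27 Rab genes that have more than 1, with a diamond for the main probe set and filled symbols for an adjusted p under 0.05. The probe sets of Rab43 lie together at -1.10 and -1.11, and those of Rab8b lie at 0.63 and -2.02.

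Genes that switch, carry or read Rab proteins were taken from a list of 118, of which 73 were measured. With e7 conidia at 4 h in WT cells 20 passed (27.4%), 4 higher and 16 lower, against 17.5% of all genes, 6.11% higher and 11.4% lower, with a median of -0.33 where that of all genes was -0.08. Of 30 effectors, 2 were higher and 9 lower, of 20 exchange factors 1 was higher and 6 lower, and of 16 GTPase-activating proteins 1 was higher. Without e7 replicates 2 and 3, 2 of them were called, both lower, and in the fit of the 8 arrays alone none was.

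Among effectors, Rabep1, which links Rab5 to early endosome fusion, rose by 0.71 ± 0.14 (adjusted p = 0.000792 by limma). Rab11fip5, a Rab11 adaptor, rose by 0.61 in WT cells at 4 h, and by 1.5 ± 0.21 in KO cells at 2 h (adjusted p = 6.04e-05 by limma). Fyco1, which ties Rab7 to kinesin, fell by 1.02 on the log2 scale (SE 0.17, adjusted p = 0.000113). Subunits of the tethering complexes that Rab7 recruits fell as well, Vps11 by 1.16, Vps16 by 0.61 and Vps39 by 0.58. Mlph, the link of Rab27a to myosin, fell by 1.59, and Plin3, Rabepk, Rufy1 and Exoc6 fell by 1.06, 0.93, 0.57 and 0.55.

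Among exchange factors, the TRAPP subunits Trappc5, Trappc1 and Trappc4 fell by 0.98, 0.72 and 0.63, while Trappc2 rose by 0.58. Dennd1a, Rab3il1 and Ccz1, the last a part of the Rab7 exchange factor, fell by 1.24, 1.01 and 0.39. Chm, the escort protein that presents Rabs for prenylation, fell by 0.73, and the GTPase-activating protein Tbc1d10b rose by 0.71.

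At 2 h in WT cells 3 of the 73 passed with e7 conidia (4.11%), against 1.76% of all genes. Eea1, the Rab5 effector of early endosome fusion, was higher by 0.86 ± 0.21 (adjusted p = 0.0238 by limma), and Trappc1 and Rabggta, a subunit of the enzyme that prenylates Rabs, were lower at -0.56 and -0.73. None of the 3 passed with the 3'/5' ratio as a covariate. In KO cells at 2 h 8 passed (11%), near the 8.54% of all genes, and 4 of them were higher and 4 lower, against 5.88% and 2.65% of all genes. Higher beside Rab11fip5 were Mical1 (0.84), Tbc1d20 (0.74) and the dim Dennd1b (1.28), and lower were Rabac1 (-1.42), Rabif (-0.74), Trappc4 (-0.67) and Trappc1 (-0.56). Over the 7 conditions 21 of the 73 were higher and 9 lower in KO cells than in WT cells, against 21.4% and 13.6% of all genes. After quantile normalization these counts were 17 and 12, and those of KO cells at 2 h were 3 higher and 6 lower.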

How the data were processed

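RNA of 51 alveolar macrophage samples was hybridized to Affymetrix mouse arrays after 2-cycle biotin labelling, per the labels' protocols. The authors deposited linear signal intensity for each probe set of each array. GCOS and RMA are named in the submitters' processing notes, with no version or role, and the genome build is not given in the sources used here. The mean of each array after trimming 2% at each end was 500.2. Precision is limited by the number of arrays.

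Of 22690 probe sets, 64 controls were left out and 22626 tested, of which 20380 had 1 gene symbol, 691 several and 1555 none in the platform annotation. All 50 Rab genes were matched to RefSeq by gene ID. The log2 of each value was used without a pseudocount, filter or new scaling. The fit was made with limma 3.58.1 (R 4.3.3), with 1 mean for each of 15 groups, all 51 arrays in the fit and eBayes at its defaults. Two-sided p-values were adjusted (Benjamini-Hochberg) across all probe sets within each of 23 comparisons, and called means an adjusted p under 0.05. An error after ± is limma's standard error. It uses 1 spread per probe set shared by all groups and is too small for a group that varied more. The fit was also run on simulated data with the same spread in every group. It was thus not tested for groups of unequal spread.

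The members and lists were chosen with earlier results of these data known. Rab genes named are those called in any comparison, the 6 with the highest and 4 with the lowest mean signal, those of the phagosome path, and those whose probe sets disagree. Other genes named are called members of the list of Rab regulators and effectors, Cybb, markers, and chromosomal neighbours chosen by position. The main fit did not pair arrays by replicate number. Over all probe sets the median correlation of deviations was 0.006 for pairs of the same number (322 pairs, -0.103 to 0.117). For pairs of different numbers it was -0.002. Such a median cannot exclude structure shared by arrays of the same number. KO replicate 3 had the lowest alveolar macrophage list mean in every KO group, as in untreated cells at 12.61 against 12.96 and 12.78. Alternatives were quantile normalization, a floor of 50, a filter on mean signal of 50, a replicate block, the 3'/5' ratio as covariate, array weights, a trended prior, only the groups compared, any probe set, and leaving out arrays.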

Additional observations from a re-analysis of the deposited data

Results flagged for a closer look

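Mock replicate 4 of WT cells at 4 h stood away from the other 3 mock arrays for Rab10, at 11.67, and for Rab29, at 10.56. The gap to the nearest array was 0.889 and 0.964 of the group's range. Of 29 groups of values tested in this way 2 stood out, where chance alone gives about 1 in 20.

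The Rab1b response to e7 conidia at 4 h was larger in KO than in WT cells by 1.52, by the test of the difference itself. The Rab43 response in WT cells differed by -1.29 at 4 h relative to 2 h, and that of Rab8b by 0.87, each also by a test of the difference.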

How the results depend on the processing

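Of 43 Rab gene calls, 11 were kept under every alternative run on them, all between KO and WT, among them Rab34, Rab9, Rab20 and Rab7. No call for conidia, beads, instillation or a difference of responses was kept under all. Over 1251 alternatives of these calls, 1038 kept the call, 213 lost it and 0 turned its direction. The alternative by any probe set takes the smallest p of a gene from the same fit. It therefore keeps every call by design, here and in the counts for single genes above. The 12 calls of KO against WT over the 7 conditions had 58 or 59 alternatives each and make up most of this total. The other calls had 14 to 26 each. With 2 to 4 arrays a group and dim probe sets for 14 genes, changes of modest size could be missed. The cause of a moved count was not tested.

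Counts of Rab genes called moved as follows. For most alternatives, here and in the leave-out counts, no count over all genes is given beside them. A moved count can therefore not be read as a result about the Rab genes. WT e7 against mock at 2 h had 0, and 2 with quantile normalization, 2 with a floor of 50, 3 with a filter on mean signal, 8 with array weights and 2 with a trended prior. At 4 h it had 8, and 0 with only the groups compared, 14 by any probe set and 0 without replicates 2 and 3. WT e7 against e6 at 4 h had 8, and 0, 15 and 0 in the same order. KO e7 against mock at 2 h had 4, and 2 with quantile normalization, 2 with the 3'/5' covariate, 10 with weights and 2 with only the groups. KO e6 against mock at 4 h had 0, and 1 with the floor. Beads against mock had 1, and 8 with the floor, 2 with the filter, 0 with the covariate and 0 with only the groups. WT e7 against beads had 0, and 2 with quantile normalization, 8 with the floor, 3 with the filter, 1 with the covariate, 2 with the trend, 1 by any probe set and 1 without replicates 2 and 3. KO e7 against e6 at 2 h had 3, and 6 with the floor, 8 with weights, 0 with only the groups and 6 by any probe set. At 4 h it had 0, and 1 with quantile normalization and 4 with the floor. KO mock against untreated had 0 at 2 h, and 1 with weights. At 4 h it had 1, and 2 with weights and 0 with only the groups. KO against WT had 12, and 20 by any probe set. Untreated, it had 3, and 5 with weights and 1 with only the groups. The KO minus WT response had 0 at 2 h, and 1 with the floor and 1 with weights. At 4 h it had 1, and 0 with the covariate, 2 with weights, 0 with only the groups and 0 without replicates 2 and 3. The WT response at 4 h minus 2 h had 2, and 1 with quantile normalization, 5 with the floor, 5 with the filter, 5 with the covariate, 4 with weights, 0 with only the groups and 0 without replicates 2 and 3.

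With the replicate number as a block, beads against mock gave 2 and e7 against beads 5, and the block moved no other count by over 1.5 times. Leaving out 1 array at a time gave 0 to 2 for WT e7 against mock at 2 h, 3 to 12 at 4 h, 0 to 1 for KO e7 against mock at 2 h, 0 to 2 for beads against mock, 0 to 5 for e7 against beads, 4 to 11 for WT e7 against e6 at 4 h, 0 to 3 for KO e7 against e6 at 2 h, 0 to 1 for KO mock against untreated at 4 h, 11 to 16 for KO against WT, 1 to 5 untreated, 0 to 5 for the KO minus WT response at 4 h and 0 to 5 for the WT response at 4 h minus 2 h. A lone array left in a group was assumed to vary like the other groups. The other comparisons stayed at 0.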
